A study of Mus musculus with 5 samples.

Results

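Bbs2, Bbs4 and Bbs7 encode subunits of the BBSome, the protein complex that is disrupted in Bardet-Biedl syndrome, and each was represented by 1 probe on the array, 3 of 21446 probes in all. The probes were taken by their gene symbol in the platform annotation, and the 3 genes were chosen on these same retina to cortex ratios, which were already known to be high. The ratios are therefore given as a description, without a test. Total RNA of adult retina from C57/B6 mice was compared with total RNA of cortex from Swiss-Webster mice at postnatal day 1, with 1 pool per tissue and no genotype or treatment given in the labels. On each of 5 two-colour Agilent arrays the retina RNA carried Cy5 and the cortex RNA Cy3. The arrays are technical replicates of the same 2 pools, so the spread between them is labelling and hybridisation error, and tissue, age, strain and dye cannot be told apart.

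The BBSome is a coat-like complex that carries membrane proteins, many of them receptors, out of and along the cilium, together with the intraflagellar transport (IFT) trains. In a photoreceptor the light-sensing outer segment is a modified cilium, and all of its proteins pass through a narrow connecting cilium. Loss of BBSome subunits in mice leads to protein accumulation in the outer segment and to photoreceptor death, and retinal degeneration is a main feature of the human syndrome. Neurons of the cortex bear a primary cilium as well, where the BBSome handles signalling receptors.

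All 3 genes had higher ratios in the retina pool on every array. The values are log2 ratios of retina over cortex, computed from deposited ratios that are probably log10 values of retina over cortex, which no source states. The mean ratio over the 5 arrays was 1.92 ± 0.22 for Bbs7, 1.66 ± 0.34 for Bbs2 and 1.36 ± 0.08 for Bbs4 (SD, n = 5 arrays), or 3.79-fold, 3.15-fold and 2.57-fold higher in retina. Of 8798 genes with a value on all arrays, 4.05% had a mean ratio at least 2-fold higher in retina, a group that holds the 3 genes by the way they were chosen. In pooled tissue a higher ratio can come from more cells of a type or from more RNA per cell, and these cannot be told apart.

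The promoters of the 3 genes are shown because ciliary genes are often controlled by RFX transcription factors through the X-box. That the 3 genes read on the same side follows from how they were chosen. Each sequence runs from 250 bases before to 50 bases after 1 annotated transcript start of the gene, from RefSeq on build GRCm38.p6, 5′ to 3′ along the gene. Capitals mark the window closest to the X-box, taken as an inverted repeat of the half-site GTTNCC around the letters AT. It has 12 fixed positions, the letters AT between the half-sites among them, and was searched on both strands. The Bbs7 promoter lies at chr3:36613340-36613639, the Bbs2 promoter at chr8:94098460-94098759 and the Bbs4 promoter at chr9:59353459-59353758, all on the minus strand.
Bbs7: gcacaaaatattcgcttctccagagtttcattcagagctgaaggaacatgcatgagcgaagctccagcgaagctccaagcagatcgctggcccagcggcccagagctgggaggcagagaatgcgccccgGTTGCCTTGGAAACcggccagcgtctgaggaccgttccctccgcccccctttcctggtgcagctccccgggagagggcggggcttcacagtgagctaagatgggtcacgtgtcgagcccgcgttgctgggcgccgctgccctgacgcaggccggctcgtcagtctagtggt
Bbs2: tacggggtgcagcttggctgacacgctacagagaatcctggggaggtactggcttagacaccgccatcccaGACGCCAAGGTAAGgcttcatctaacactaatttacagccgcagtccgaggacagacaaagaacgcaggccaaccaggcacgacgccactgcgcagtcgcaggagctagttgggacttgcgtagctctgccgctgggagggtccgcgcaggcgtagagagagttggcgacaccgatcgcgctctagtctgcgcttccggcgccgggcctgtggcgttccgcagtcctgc
Bbs4: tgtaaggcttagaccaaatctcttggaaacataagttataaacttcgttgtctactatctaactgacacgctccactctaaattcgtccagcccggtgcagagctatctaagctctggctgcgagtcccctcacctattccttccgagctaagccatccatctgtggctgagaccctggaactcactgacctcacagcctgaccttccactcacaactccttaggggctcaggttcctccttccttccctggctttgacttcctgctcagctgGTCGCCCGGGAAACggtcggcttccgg

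The Bbs7 promoter held the closest match, with 1 mismatch, at 121 to 108 bases before the start. The mismatch lay in the letters between the half-sites. A window with at most 1 mismatch occurred in 0.977% of the 32851 promoters in the table. The best Bbs4 window, with 3 mismatches, lay 23 to 36 bases after the start, and 13% of promoters held one at least as close. Most of its mismatches also lay between the half-sites, and these counts do not weigh them apart. The best Bbs2 window had 4 mismatches, which 53.4% of promoters reached, so these letters did not set the Bbs2 window apart. The 3 promoters contained 63.3% (Bbs7), 62.0% (Bbs2) and 53.0% (Bbs4) G and C, against a median of 52.7% in the table. Of 19 other Bardet-Biedl genes and BBSome regulators with a promoter in the table, 2 had a window with at most 1 mismatch, Mks1 and Rab3ip. The matches describe the letters in these windows, and no binding was measured here.

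Bbs7, a subunit with a beta-propeller that pairs with Bbs2 in the core of the complex, had the highest mean ratio of the 3. Its log2 ratio was 2.09, 1.62, 2.16, 1.88 and 1.84 on arrays 1 to 5. Array 2 read lowest and array 3 highest, and every array lay more than 2-fold above an equal ratio. Ranked by ratio among 8798 genes, Bbs7 stood between rank 66 on array 3 and rank 134 on array 2, and at rank 88 by its mean.

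Bbs2, which also carries a beta-propeller and joins the core with Bbs7 and Bbs9, varied most. Its log2 ratio was 1.74, 1.07, 1.78, 1.77 and 1.92 on arrays 1 to 5. Array 2 stood apart, and the other arrays lay within 0.18 of each other. On array 2 Bbs2 was at rank 330 of the 8798 genes, against ranks 98 to 117 on the other arrays. Without array 2 its mean was 1.80 ± 0.08 (SD, n = 4).

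Bbs4, a subunit built of tetratricopeptide repeats that binds the centriolar satellite protein Pcm1, had the lowest mean ratio and the smallest spread. Its log2 ratio was 1.37, 1.36, 1.23, 1.38 and 1.46 on arrays 1 to 5. Array 3 read lowest and array 5 highest. Its rank among the 8798 genes ran from 249 on array 3 to 175 on array 4. The SD of Bbs4, 0.08, was close to the median of 0.0852 over all genes. That of Bbs7 lay at percentile 88.2 of all genes and that of Bbs2 at percentile 94.3.

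**Figure D1:**
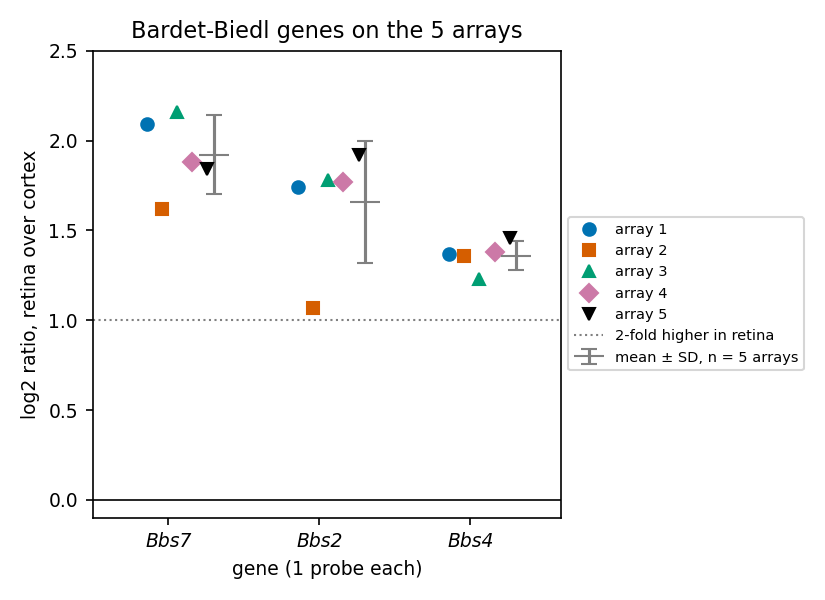
Log2 ratio of retina over cortex (vertical axis) for Bbs7, Bbs2 and Bbs4, with 1 symbol per array and the mean ± SD over 5 arrays in grey. All 15 values lie above 1, the dotted line at 2-fold, and the lowest is Bbs2 on array 2, at 1.07.

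The order of the 3 ratios was the same on 3 of 5 arrays. Bbs7 exceeded Bbs4 on 5 of 5 arrays, by 0.56 ± 0.27 log2 (SD, n = 5), and the values of the 2 genes did not overlap. Bbs7 exceeded Bbs2 on 4 of 5 arrays, by 0.26 ± 0.25, with a difference of -0.08 on array 5. Bbs2 exceeded Bbs4 on 4 of 5 arrays, by 0.29 ± 0.34, with a difference of -0.30 on array 2. Without array 2, on which Bbs2 stood apart, Bbs2 exceeded Bbs4 on 4 of 4 arrays, by 0.44 ± 0.08 (SD, n = 4), and Bbs7 exceeded Bbs2 by 0.19 ± 0.22, on 3 of 4 arrays. Array 2 was the only one of the 5 on which Bbs4 read above Bbs2, and the values of Bbs7 and Bbs2 overlapped with or without it. These are differences between log2 ratios and say nothing of which mRNA was more abundant.

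**Figure D2:**
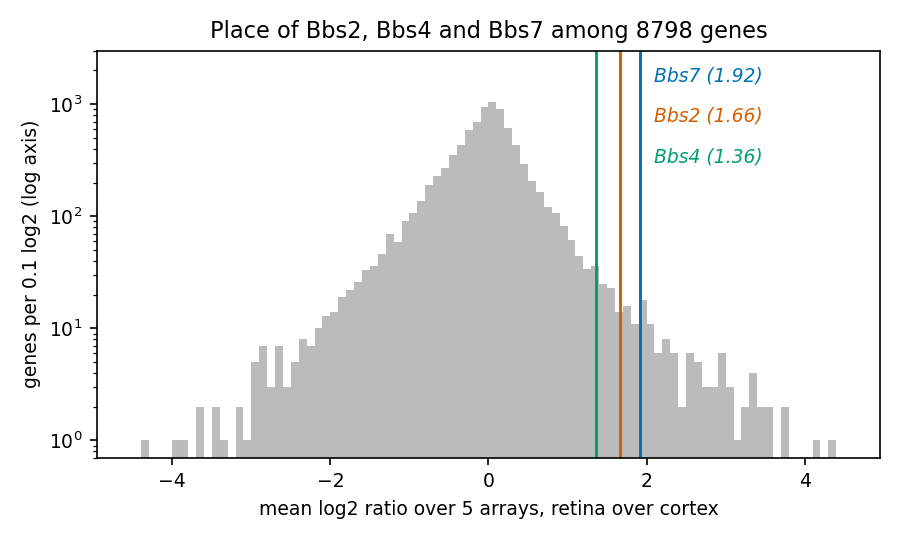
Number of genes per 0.1 log2 (vertical, log axis) by mean log2 ratio of retina over cortex (horizontal) for 8798 genes, with lines at the means of Bbs7, Bbs2 and Bbs4. The 3 genes stand in the right-hand tail, at ranks 88, 128 and 193 by mean ratio.

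On arrays 1 to 3 Bbs7 deviated in the same direction as the probes printed around it, while the low reading of Bbs2 on array 2 stood without such a shift. Positions were inferred from the probe numbers, taken as 215 columns and 105 rows, the equal split with the highest correlation of residuals between rows (mean r of 0.318 over the arrays, and at most -0.001 for the other splits tried). A residual is a probe's log2 ratio on an array minus its mean over the 5 arrays. On arrays 1, 2 and 3 the residual of Bbs7 was 0.17, -0.30 and 0.24, while the median residual of the 151 probes in a window of 15 by 15 positions around it was 0.14, -0.19 and 0.16. On arrays 4 and 5 the residual of Bbs7 was -0.04 and -0.08, and the median around it was -0.15 and 0.01. Subtracting the window's median on each array left the Bbs7 mean at 1.93 and its SD at 0.10, in place of 0.22. For Bbs2 on array 2 the residual was -0.59, and the 206 probes around it had a median of 0.02. The same subtraction left Bbs2 at 1.66 ± 0.34 and Bbs4 at 1.36 ± 0.06 (SD, n = 5). This calculation was chosen after the data had been seen.

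**Figure D3:**
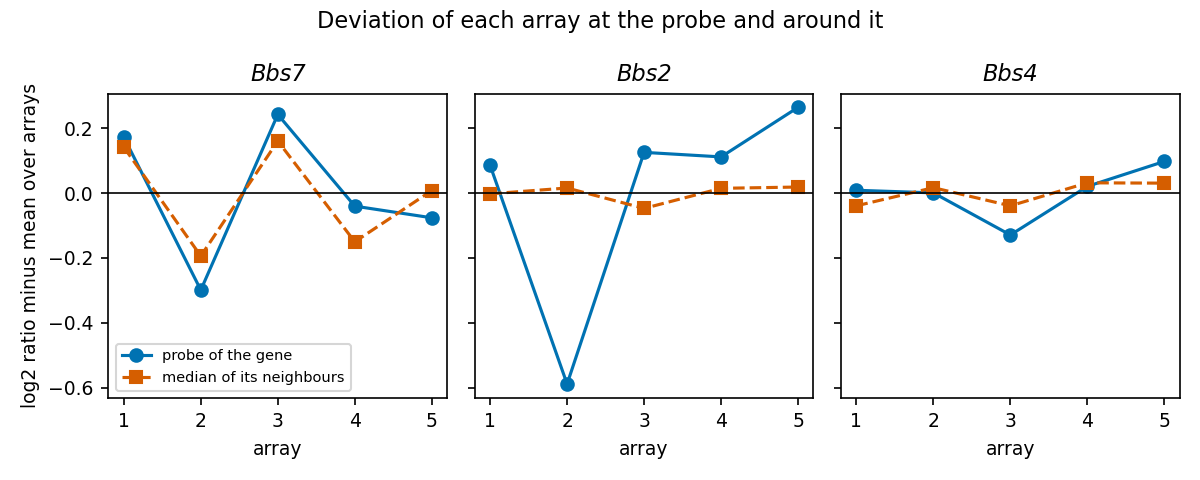
Residual log2 ratio (vertical axis) on arrays 1 to 5 for the probe of Bbs7, Bbs2 and Bbs4 (circles) and the median of the probes around it (squares). Around Bbs7 the squares run from -0.19 on array 2 to 0.16 on array 3. They lie on the same side of 0 as its own probe on arrays 1 to 4, and on the other side on array 5, at 0.01 against -0.08. Around Bbs2 the squares stay within 0.05 of 0 while its own probe reads -0.59 on array 2.

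The genes whose ratios were most like each of the 3 over the 5 arrays were found by the root mean square difference in log2 ratio, over the same pools and arrays. Those closest to Bbs4 were Flcn (difference 0.048), Pink1 (0.058) and Mgll (0.061), with means of 1.34 ± 0.06, 1.35 ± 0.05 and 1.31 ± 0.05. Closest to Bbs7 were Shroom3 (0.164), Nlk (0.169) and Tob2 (0.192), with means of 2.00 ± 0.07, 1.91 ± 0.04 and 1.88 ± 0.03 (SD, n = 5). Closest to Bbs2 were Grtp1 (0.117), Plcd3 (0.167) and Kat2b (0.169), with means of 1.55 ± 0.32, 1.73 ± 0.18 and 1.55 ± 0.19. The likeness of 3 of these genes rests on the mean of 2 probes that disagree, with probe means of 0.79 and 2.67 for Plcd3, 0.30 and 2.81 for Kat2b, and 0.32 and 3.44 for Tob2. The Bardet-Biedl genes were not each other's closest. From Bbs2, Bbs7 was at rank 33 (0.345) and Bbs4 at rank 99 (0.421), and from Bbs4, Bbs7 was at rank 494 (0.608).

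No other measured gene of the ciliary lists had a mean ratio as high as these 3. Of 152 genes in 12 lists around the BBSome and the cilium, 75 were measured, that is, had a named probe with a value on every array. None of the 75 was past the 2-fold test in the direction of retina and 1 was past it in the direction of cortex, by limma with a minimum of 2-fold and Benjamini-Hochberg adjustment over all genes, where 2.8% of all genes were higher and 3.83% lower. At an unadjusted p under 0.05 in the same test the counts were 0 higher and 2 lower, where 290 of all 8798 genes were higher and 398 lower. The median ratio of the 75 genes was 0.04, against -0.0048 for all genes, and the values ran from -1.16 to 1.01. Against a ratio of 0, limma called 31 of them higher and 25 lower in retina, where 37% of all genes were called higher and 36.7% lower. Bbs2, Bbs4 and Bbs7 lay above all 75, an order that their selection for a high ratio favours.

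Among the other BBSome subunits, 1 of 5 was measured. Bbip1, the small subunit BBIP10, had log2 ratios of -0.37, -0.19, -0.26, -0.22 and -0.20 on arrays 1 to 5. It lay on the cortex side on every array, at -0.25 ± 0.07 (SD, n = 5), and did not pass the 2-fold test. Bbs1, Bbs5, Ttc8 and Bbs9 were not analysed here.

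Of 18 further Bardet-Biedl genes and BBSome regulators, 8 were measured and none passed limma's 2-fold test, also without adjustment. Rab3ip, the exchange factor that activates Rab8 for membrane delivery to the cilium, was nearest to it on the retina side. Its log2 ratio was 0.97, 1.01, 0.96, 1.00 and 0.96 on arrays 1 to 5, a mean of 0.98 ± 0.02. Mkks, a chaperonin-like protein that helps to assemble the Bbs2, Bbs7 and Bbs9 core, read 0.98, 0.56, 1.08, 0.63 and 0.88, with a mean of 0.83 ± 0.22 and 2 probes at 0.65 and 1.00. Mkks read lowest on array 2, as did Bbs2 and Bbs7 but also genes of other lists, such as Ttc21b (0.60) and Opn1sw (3.14). Lztfl1, which restrains BBSome entry into the cilium, stood at 0.31 ± 0.10 over 4 probes with means between 0.13 and 0.51. The IFT subunits Ift172 and Ift74 stood at 0.62 ± 0.09 and 0.23 ± 0.11. The centrosomal Sdccag8, at 0.28 ± 0.27, differed in sign between arrays, and so did Scaper, at -0.05 ± 0.06. Trim32, a ubiquitin ligase, lay on the cortex side at -0.62 ± 0.03 (SD, n = 5). The list median was 0.29.

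The CCT chaperonin, whose subunits work with Mkks, Bbs10 and Bbs12 in assembling the BBSome core, lay mostly on the other side. Of 7 measured subunits, 6 had ratios below 0, none passed the 2-fold test and the median was -0.34. Against a ratio of 0, limma called 6 lower and 0 higher. Of all 8798 genes, 4449 had ratios below 0 and 36.7% were called lower against 0. Cct2 was farthest from 0, at -1.09 ± 0.04 (SD, n = 5), with a limma adjusted p of 0.118, and was the only one with an unadjusted p under 0.05. Tcp1 was alone above 0, at 0.04 ± 0.07.

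Of the IFT proteins, which move the BBSome along the cilium, 12 of 24 were measured and 11 had ratios above 0, with a median of 0.22. None passed limma's 2-fold test, with or without adjustment, and 8 were called higher and 0 lower against a ratio of 0. Of all genes, 49.4% had ratios above 0, and 37% were called higher and 36.7% lower against 0. The farthest from 0 in complex A was Ttc21b, at 0.74 ± 0.10, and in complex B Ift172. Ift140 (-0.01 ± 0.03) and Ift88 (0.06 ± 0.04) read close to an equal ratio (SD, n = 5).

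All 3 measured ciliary motor genes lay below 0, led by the dynein light chain Dynll1 at -0.88 ± 0.06, with the kinesin-2 subunits Kif3a at -0.63 ± 0.03 and Kif3b at -0.30 ± 0.10. Against a ratio of 0, limma called all 3 lower. Of all 8798 genes, 4449 had ratios below 0 and 36.7% were called lower against 0. These motor proteins also serve transport outside the cilium. Of 8 measured transition zone genes, whose proteins gate the base of the cilium, none passed, and Tmem231 was farthest from 0 at 0.97 ± 0.10 (SD, n = 5). The median of that list was 0.13.

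Among 14 measured genes for delivery of membrane and lipid-anchored proteins to the cilium, the ratios spread to both sides around a median of 0.06, and none passed. Arl3, the GTPase that releases lipid-anchored proteins inside the cilium, stood at 1.01 ± 0.08, and its partner Pde6d at 0.80 ± 0.04. Arf4, a GTPase of rhodopsin transport, was farthest from 0, at -1.04 ± 0.11 (SD, n = 5), as the mean of probes at -1.57 and -0.51. Its lower probe alone would pass the 2-fold test, at -1.57 with a limma adjusted p of 0.000136.

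Pcm1, the satellite protein that Bbs4 binds, had a ratio of -0.17 ± 0.09 (SD, n = 5), as the mean of 3 probes that differed in sign, with means from -0.58 to 0.40. The 9 measured satellite and basal body genes had a median of 0.42, and none passed. Dctn1, the dynactin subunit that Bbs4 links to satellites, was farthest from 0 at 0.74 ± 0.11.

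Gpr161, an orphan receptor that the BBSome helps to remove from the cilium and that restrains Hedgehog signalling, was the 1 gene of the 12 lists past the 2-fold test. Its log2 ratio was -1.23, -1.08, -1.14, -1.17 and -1.16 on arrays 1 to 5, all on the cortex side. The mean was -1.16 ± 0.06 (SD, n = 5), or 2.23-fold lower in retina, with an adjusted p of 0.0126 from limma. Without array 4 the mean was -1.15 and the adjusted p 0.0635, and with arrays scaled to the same spread the p was 0.344. Of the other 2 measured receptors, Ptch1, with probes at 0.57 and 1.21, stood at 0.89 ± 0.13. Lepr, with probes at -0.42 and 0.19, stood at -0.12 ± 0.17.

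Of the RFX and FOXJ1 factors, 4 of 7 were measured, with values from -0.23 to 0.39 and none past the test. Rfx1 was farthest from 0, at 0.39 ± 0.07 (SD, n = 5). Genes of motile cilia, which mark the ependyma of the brain ventricles, were measured for 8 of 18 and none passed. Their values ran from -0.99 to 0.18 around a median of 0.02, with Rsph9 farthest from 0 at -0.99 ± 0.03.

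**Figure D4:**
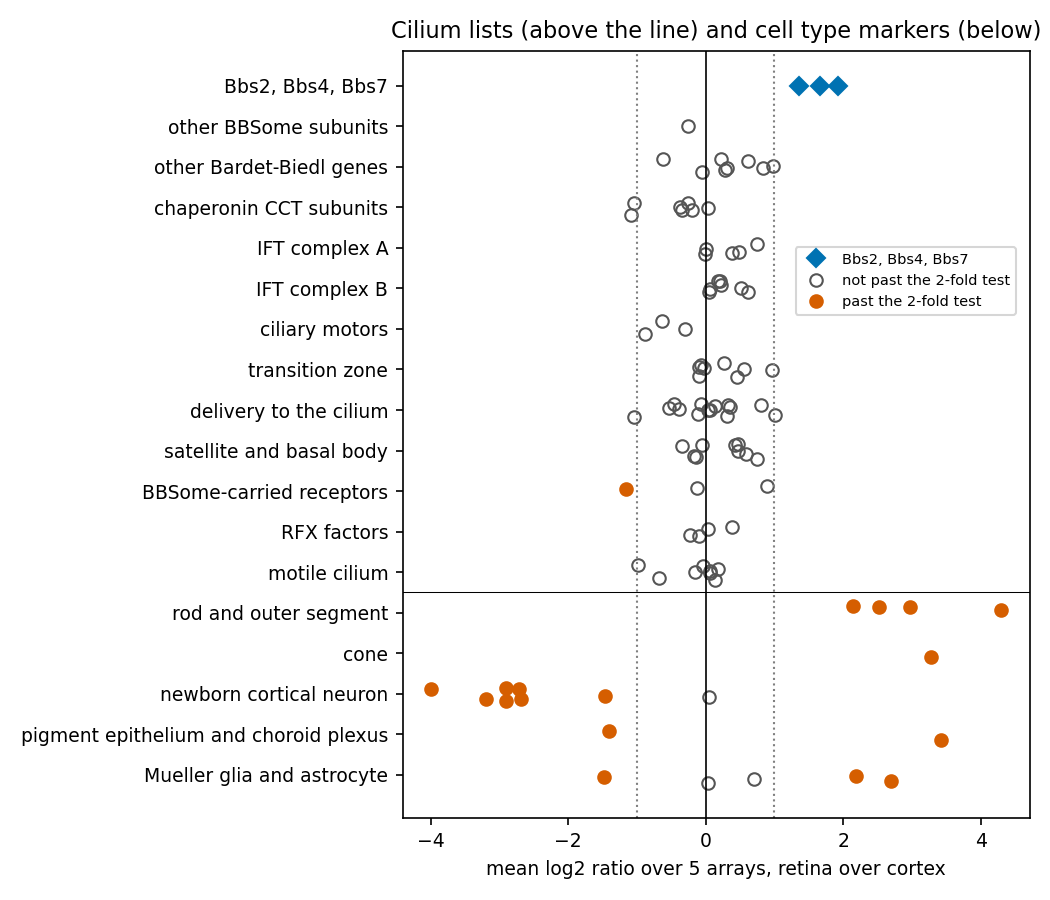
Mean log2 ratio of retina over cortex over 5 arrays (horizontal axis) for each measured gene of the cilium lists and of the cell type marker lists, 1 row per list, with filled circles past the 2-fold test and dotted lines at 2-fold. The ciliary genes lie between -1.16 and 1.01, Bbs2, Bbs4 and Bbs7 between 1.36 and 1.92, and the rod genes between 2.15 and 4.30.

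Most measured genes of the photoreceptor lists read higher in the retina pool, and most of the newborn cortical neuron list higher in the cortex pool. The retina was adult and the cortex from postnatal day 1, so age and tissue cannot be told apart in these ratios. All 4 measured rod and outer segment genes of 25 were higher in retina, with Cdhr1 at 4.30 ± 0.05, Cngb1 at 2.97 ± 0.23, Prom1 at 2.52 ± 0.15 and Gnb1 at 2.15 ± 0.10, and the 1 measured cone gene of 9, Opn1sw, was at 3.28 ± 0.09 (SD, n = 5). Each had a larger mean ratio than Bbs7. Of 8 measured newborn cortical neuron genes, 7 were lower in retina, with Dcx at -3.99 ± 0.04, Gap43 at -3.19 ± 0.13, Tubb2b at -2.91 ± 0.09 and Sox11 at -2.90 ± 0.06. The remaining gene, Eomes, read 0.05 ± 0.22. The probes of Sox11 ran from -4.14 to -1.16 and those of Dcx from -4.61 to -3.37. In the pigment epithelium and choroid plexus list 2 of 10 genes were measured, Otx2 at 3.42 ± 0.03 and Ttr at -1.40 ± 0.04, and Otx2 is expressed in photoreceptors too. In the Müller glia and astrocyte list, with 5 measured, Dkk3 (2.69 ± 0.08) and Clu (2.18 ± 0.15) were higher and Gja1 (-1.48 ± 0.14, with probes at -2.45 and -0.51) lower. Glul (0.71 ± 0.09) and Vim (0.04 ± 0.12) did not pass the 2-fold test. Among the named markers past limma's 2-fold test, Gja1 had the highest adjusted p, at 0.00112. These shifts in cell type markers run beside the higher ratios of Bbs2, Bbs4 and Bbs7, and their part in those ratios was not tested.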

How the data were processed

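Expression was measured on 5 two-colour arrays that each carried the retina and the cortex pool. The authors deposited 1 value per probe and array, read here as a log10 ratio because values stop exactly at 2 and -2. Base and direction are probable, not stated, and for background correction, dye normalization and filtering the method is not given in the sources used here. If the direction were the other way, every sign would turn. The deposited columns had medians of 0, and of -7.32e-05 on array 5. Without spot intensities, precision is limited by how many arrays there are.

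The deposited values times 3.32 gave log2 ratios, and an exact 0 was read as no value. Of 21446 probes, 11813 had 1 symbol, 559 several, and 9074 were not listed in the annotation. A RefSeq table of GRCm38.p6 named 11782 by gene identifier. A gene's value was the mean of its probes with values on all 5 arrays, which gave 8798 genes. An intercept was fitted to each gene with limma 3.58.1 in R 4.3.3 and tested two-sided against a minimum of 2-fold (treat) and against 0 (eBayes), adjusted by Benjamini-Hochberg and called at 0.05. The p-values cover error between arrays of the same pools. Tested on simulated data of 8798 genes for the retina over cortex comparison, it called 95.5% of genes set at a log2 ratio of 1.5 and 98.5% of those set at 2, in either direction. No size between 0 and 1.5 was set, so recovery just above the 2-fold minimum was not measured. The measured genes of the cilium lists, from -1.16 to 1.01, all lie below the smallest size set.

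The genes Bbs2, Bbs4 and Bbs7 and the lists were chosen with earlier results of these data known. Named were all measured Bardet-Biedl genes, and from the other lists up to 4 genes past the test, the farthest from 0, or the 1 gene farthest from 0 where none passed. Further genes are named as examples, chosen after their values were seen. Alternatives covered centring, scaling, exact 0 values, missing values, probe summary, log base, minimum fold, prior, array weights, noisy genes and each array left out. Minimum fold, prior, array weights and noisy genes were read for the counts and the other named genes, not for the ratios of Bbs2, Bbs4 and Bbs7. Bbs2, with an SD at percentile 94.3, was itself among the noisy genes left out.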

Additional observations from a re-analysis of the deposited data

Results flagged for a closer look

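Bbs2 had a log2 ratio of 1.07 on array 2, while the remaining 4 arrays gave 1.74 to 1.92. Kat2b, picked for its likeness to Bbs2 over the same arrays, had 1.21 on array 2 and 1.60 to 1.68 on the rest. For the BBSome regulator Lztfl1, array 1 gave 0.13 and the rest 0.33 to 0.40. For the outer segment gene Prom1, array 4 gave 2.24 and the rest 2.57 to 2.62. Array 5 was the distant one for Clu, at 2.44 against 2.07 to 2.14, and for Tob2, at 1.82 against 1.89 to 1.90. In each case 1 array lay far from the other 4 relative to the range of all 5. Of 44 genes checked in this way 6 were found. Chance gives about 5% for independent genes. The 44 include genes picked for likeness to the 3 over these arrays, such as Kat2b and Tob2, so no excess can be read from the count. The cause was not tested.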

How the results depend on the processing

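The log2 ratios of Bbs2, Bbs4 and Bbs7 moved by less than the SD between arrays in 36 of 39 alternative values. The other 3 came from reading the deposited values as log2, which left 0.50, 0.41 and 0.58 for Bbs2, Bbs4 and Bbs7, since each ratio is then smaller by construction. Most of the 36 could not have moved as far as the SD. Leaving out arrays in these fits always shifts the mean of 5 by less than that. The choices for exact 0 values, missing values and probe summary cannot change a gene with 1 probe and a nonzero value on every array. These values are therefore no evidence of stability. Without 1 array at a time, Bbs2 ranged from 1.59 to 1.80, Bbs4 from 1.34 to 1.39 and Bbs7 from 1.86 to 2.00. Read as log2, the 2-fold test left 3 genes higher and 4 lower in retina of all genes, 1 higher and 1 lower marker gene, and 0 lower genes of the cilium lists. A minimum of 1.5-fold gave 615 genes higher and 793 lower, and 6 and 6 in the cilium lists, which follows from the minimum itself. The count of lower genes in the cilium lists was 0 to 1 without 1 array at a time, 0 without arrays 1 and 4, 0 with arrays scaled to the same spread and 2 with the lower of 2 probes, where Arf4 is added. Among other named genes, leaving aside log base and minimum fold, 599 of 613 values kept their side of the test, 13 fell below it (Gpr161, Grtp1, Kat2b, Plcd3 and Tob2) and 1 rose above it (Arf4). The fit without arrays 1 and 4, the differences without array 2 and the subtraction of neighbouring residuals were chosen after seeing the data. Each array carries both pools, so every ratio is already a comparison within an array, and the 5 arrays form 1 group with no further pairing. With 1 probe per gene, a probe effect or cross-hybridisation at Bbs2, Bbs4 or Bbs7 was not tested, and signal over background is unknown.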
